A study of Mus musculus with 4 samples.

Results

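The Adam and Adamts genes are the genes whose names begin with Adam in the exon-sense rows of a table of RNA-seq reads from mouse testis. They numbered 35 of 12415 exon-sense features, of which 28 were Adam genes with a number and 7 were Adamts genes. The study sequenced testicular total RNA from Nef-sp-/- mice and from Nef-sp+/- control mice, with 2 libraries per genotype, to ask which transcripts differ in the absence of NEF-sp, a nuclear 3′ to 5′ exoribonuclease of the testis. All animals were adults of postnatal day 60, and their strain is given as C57Bl/6J, with C57Bl/6J Rj males used as mates of the founders. The mutant line carries a 23 bp out-of-frame deletion made with a Cas9 nickase and a pair of guide RNAs, so each control animal also carried the deletion on 1 allele, and wild-type libraries were not analysed here. Each library is from whole testis, in which fewer cells of a type and less RNA per cell cannot be told apart.

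ADAM proteins are membrane-anchored relatives of the snake venom metalloproteases. Some cut the outer parts of other membrane proteins from the cell surface, while others lack the catalytic residues and act in cell contact. A large branch of the family is expressed in mouse male germ cells, where fertilin (ADAM1b with ADAM2) and ADAM3 sit on the sperm surface. ADAM3 takes part in sperm passage into the oviduct and in contact with the egg coat. ADAMTS proteins are secreted, carry thrombospondin repeats and cut components of the extracellular matrix. The members are described in 3 groups: 19 germ cell Adam genes, 9 widely expressed Adam genes and 7 Adamts genes. The group names are labels of gene lists, and expression in other tissues was not examined here.

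The libraries held between 20659865 and 34442517 counted reads. Nef-sp, listed as 2610020H08Rik, had normalized counts of 1843 and 1693 in Nef-sp+/- testes and of 407 and 497 in Nef-sp-/- testes, a log2 fold change of -1.97 (SE 0.0921, adjusted p = 4.12e-06 by the quasi-likelihood test of edgeR with Benjamini-Hochberg adjustment). It was the only one of 10728 tested exon-sense features to pass an adjusted p of 0.05, which is 0.00932% of them, while 4.8% had an unadjusted p below 0.05. The Nef-sp+/- libraries differed from each other by more than the Nef-sp-/- libraries did, at a chi-square of 8.53 per degree of freedom against 3.52. The summed normalized counts of 8 spermatid markers were 325011 and 396290 in the Nef-sp+/- libraries and between 392098 and 401496 in the Nef-sp-/- libraries. Those of 7 Leydig cell markers were between 19396 and 19577 in Nef-sp+/- testes and between 16105 and 18533 in Nef-sp-/- testes, and the 7 listed of 8 Sertoli cell markers summed to between 20657 and 21918 over all 4 libraries. Of 9 epididymal markers 2 were listed, and their sum stayed at or under 9.24. Among 41 tested cell type markers 3 had an unadjusted p below 0.05 (Cyp11a1, Cyp17a1 and Tnp1), and 0 passed after adjustment (edgeR).

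The catalytic site of an active ADAM protease holds a zinc-binding motif with 5 fixed residues, namely a histidine, a glutamate, a histidine, a glycine and a histidine. The coding sequences below are the 33 bases that encode this motif, or the aligned place where the motif was not found. They are shown because the family divides by this motif into likely proteases and members without the catalytic site. They were read on the coding strand from the GENCODE vM1 transcripts, lie in coding exons and are placed on mm9. Capitals mark the codons that encode the fixed residues. The first set holds motifs of germ cell members (Adam1a and Adam1b have the same 33 bases, as do Adam38 and Adam39) and those of the widely expressed Adam9 and Adam17.
Adam1b, chr5:121951946-121951978, minus strand: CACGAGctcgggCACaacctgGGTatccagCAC
Adam24, chr8:41765872-41765904, plus strand: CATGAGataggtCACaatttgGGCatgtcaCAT
Adam25, chr8:41840115-41840147, plus strand: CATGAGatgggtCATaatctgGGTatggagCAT
Adam39, chr8:41910990-41911022, plus strand: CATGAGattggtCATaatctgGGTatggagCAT
Adam30, chr3:97965784-97965816, plus strand: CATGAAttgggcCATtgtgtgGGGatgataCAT
Adam9, chr8:26100798-26100830, minus strand: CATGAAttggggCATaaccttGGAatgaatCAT
Adam17, chr12:21342593-21342625, minus strand: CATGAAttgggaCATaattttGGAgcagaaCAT

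The second set holds the germ cell members in which the aligned place did not encode the whole motif.
Adam3, chr8:25817890-25817922, minus strand: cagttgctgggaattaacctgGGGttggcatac
Adam5, chr8:25916921-25916953, minus strand: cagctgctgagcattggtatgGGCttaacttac
Adam32, chr8:26011973-26012005, minus strand: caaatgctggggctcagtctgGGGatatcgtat
Adam2, chr14:66672678-66672710, minus strand: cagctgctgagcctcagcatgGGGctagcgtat
Adam18, chr8:25758320-25758352, minus strand: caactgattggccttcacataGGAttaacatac
Adam6, chr12:114783261-114783293, plus strand: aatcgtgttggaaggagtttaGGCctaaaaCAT
Adam4, chr12:82521750-82521782, minus strand: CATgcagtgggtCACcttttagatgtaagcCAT
Adam29, chr8:58351171-58351203, minus strand: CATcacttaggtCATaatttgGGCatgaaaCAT

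The full motif was found in 11 of the 19 germ cell members and was not found in 8. In Adam2, Adam3, Adam5, Adam18 and Adam32 the glycine codon alone was shared with the motif. Adam6 kept 2 of the 5 codons, Adam4 kept 3 and Adam29 kept 4. The gene structures divided in a similar way. The 5 members that shared the glycine codon alone had 20 to 22 exons in their longest coding transcript, whereas the other 14 had 1 exon (5 genes) or 2 exons (9 genes). The encoded proteins of the germ cell group were 697 to 822 residues long.

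The highest germ cell members were among the abundant transcripts of these testes. All 19 germ cell members were above each of the other 16 members in normalized counts per kb of exon. On this scale genes of different length can be compared. Together they took 0.696% ± 0.00713 (SD, n = 2) of the exon-sense reads in Nef-sp+/- testes and 0.698% ± 0.0102 (SD, n = 2) in Nef-sp-/- testes, of 0.702% ± 0.00752 and 0.703% ± 0.00992 for all 35 members. Adam5, Adam3, Adam32, Adam2 and Adam1b held 73.2% of the reads of the group. Levels per kb ran from 9788 ± 287 for Adam3 to 279 ± 20.04 for Adam34 (mean ± SD, n = 4 libraries), a 35.1-fold range with a median of 1185 over the 19 genes. By level per kb Adam3 ranked 83 and Adam34 ranked 3672 among the 12047 exon-sense features with a known length.

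**Figure D1:**
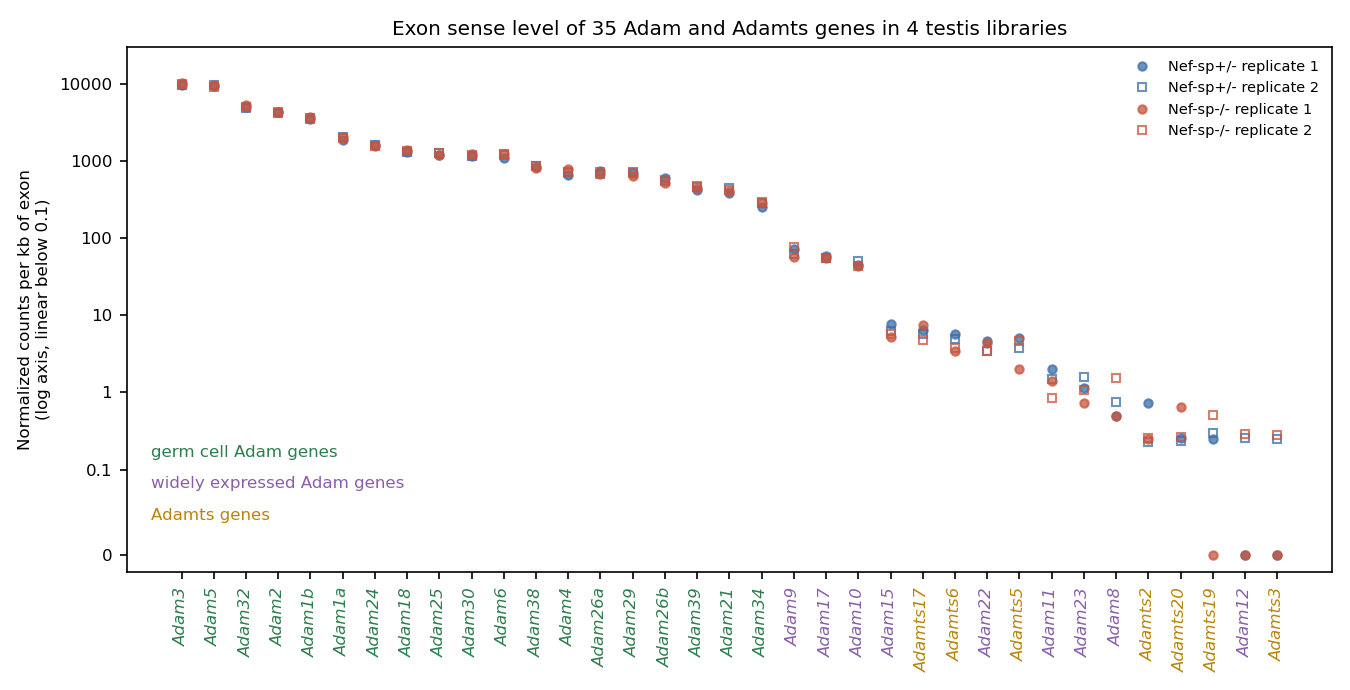
The plot of levels gives normalized counts per kb of exon for the 35 members in each of the 4 libraries, on a log axis that is linear below 0.1. Circles and squares are replicates 1 and 2, blue is Nef-sp+/- and red is Nef-sp-/-, and gene names are coloured by group. The 19 germ cell genes lie between 250 and 10147 per kb, and the 4 points of a gene lie close together there and spread out among the rarest genes.

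Adam3 (cyritestin), needed on sperm for entry into the oviduct, had normalized counts of 28069 and 28101 in Nef-sp+/- testes and of 29823 and 29076 in Nef-sp-/- testes. Adam5, its neighbour on the chromosome, had 29702 and 30213 against 30645 and 28869. The per kb levels of this pair overlapped between libraries, so their order is not resolved. Both lie above Adam32, whose normalized counts were 14921 and 14724 against 16126 and 14914.

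The subunits of fertilin came next. Adam2, which encodes fertilin beta, had normalized counts of 11070 and 10768 in Nef-sp+/- testes and of 11098 and 11119 in Nef-sp-/- testes. For Adam1b, which encodes the fertilin alpha of the sperm surface, the values were 10037 and 10503 against 10591 and 10093. Adam1a, whose product pairs with ADAM2 inside the cell during sperm formation, had 5727 and 6251 against 6232 and 6194. Per kb, Adam2 (4317 ± 64.7) stood above Adam1b (3574 ± 97.6) and Adam1b above Adam1a (1973 ± 81.0) without overlap between the libraries.

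A middle range was made of Adam24, Adam18, Adam25, Adam30, Adam6 and Adam38. Adam24, the first of the proteases named testases, had normalized counts of 4586 and 4555 in Nef-sp+/- testes and of 4461 and 4508 in Nef-sp-/- testes. Those of Adam18 were 3079 and 3064 against 3264 and 3198. In Adam25, another testase, they were 3160 and 3365 against 3093 and 3360. Per kb these 3 genes followed each other without overlap, at 1578 ± 19.1, 1335 ± 40.7 and 1238 ± 53.1. Adam30 had 2756 and 2736 normalized counts against 2880 and 2824. Adam6, whose product is found in complexes with ADAM2 and ADAM3, had 2701 and 3057 against 3118 and 2996. In the order per kb Adam30 overlapped with Adam25 above it and with Adam6 below it. Adam38, which RefSeq now lists as Adam20, had 2140 and 2260 against 2074 and 2220. The remaining 7 germ cell genes (Adam4, Adam26a, Adam29, Adam26b, Adam39, Adam21 and Adam34) lay at or below 718 ± 49.2 per kb. Among them, Adam29 had 1928 and 1948 normalized counts against 1766 and 1879, with both Nef-sp-/- values below both Nef-sp+/- values. Of the germ cell genes 2 separated in this direction and 4 in the other, where 18.1% and 16.4% of all tested features did so. In all, 12 of the 18 neighbouring pairs in the order of the germ cell genes were separated in every library.

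The highest levels belonged to genes without the full motif. The 5 members with 20 to 22 exons had a median of 5054 per kb, from 1335 for Adam18 to 9788 for Adam3, whereas the 14 members with 1 or 2 exons had a median of 779 and a maximum of 3574 for Adam1b. Members with the full motif had a median of 839.5 per kb, and the median of the 5 many-exon members was 6.02-fold higher. The 3 members with few exons and without the full motif (Adam4, Adam6 and Adam29) lay between 690 and 1184, within the range of the members with the motif. These are descriptions of 19 related genes in the same libraries, with no test.

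Of the germ cell genes 12 lie on chromosome 8 of mm9, in 3 groups and with Adam29 alone. Adam18, Adam3, Adam5, Adam32 and the widely expressed Adam9 follow each other on the minus strand over 414.7 kb (chr8:25712718-26127394), with gaps of 0.806 to 11.8 kb between neighbouring genes. In this run the level fell from 5054 ± 214 per kb for Adam32 to 66.7 ± 8.68 for Adam9, which lies 0.806 kb away. Adam9 is also the only one of these 5 genes with the full zinc-binding motif. Adam24, Adam25, Adam38 and Adam39 lie on the plus strand over 151.8 kb, and their levels per kb descended in that order from 1578 ± 19.1 to 449 ± 19.8. Adam26b, Adam26a and Adam34 lie on the minus strand over 179.6 kb, at 558 ± 34.6, 705 ± 30.3 and 279 ± 20.04 per kb.

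**Figure D2:**
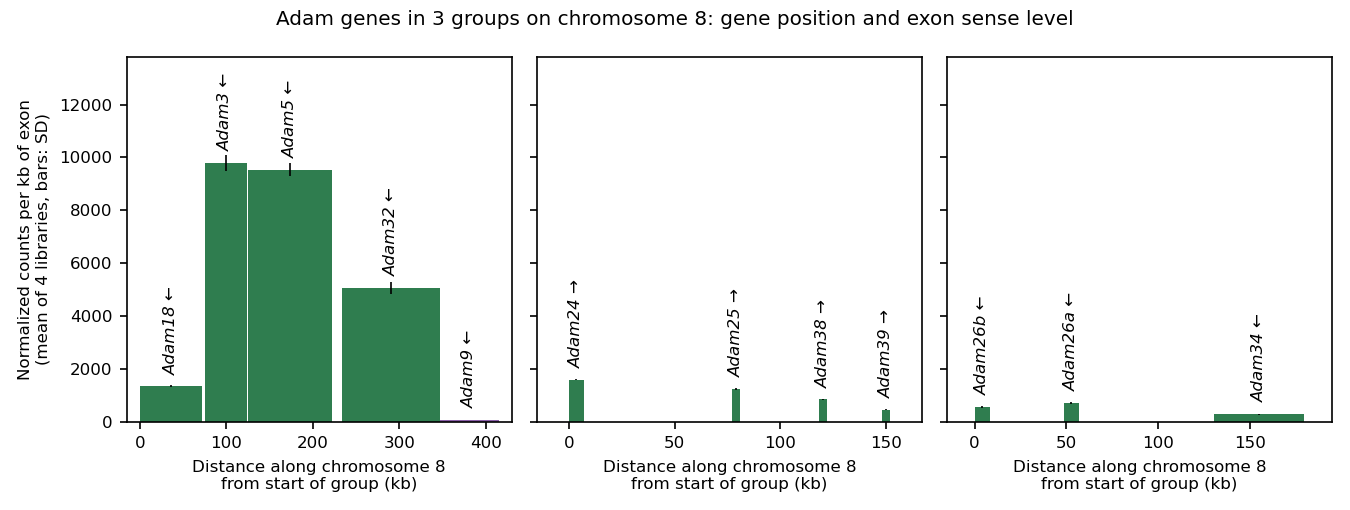
The plot of the chromosome 8 groups gives each gene as a block from its first to its last base, with its mean level in normalized counts per kb of exon as the height and the SD over 4 libraries as the bar. Arrows give the strand. Adam3 and Adam5 reach 9788 and 9542, while Adam9 at the end of the same group stays at 66.7.

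Near-identical copies limit how some of these levels can be read. Reads were counted when they matched the genome perfectly, and how reads with several matches were counted is not given in the sources used here. Of the germ cell members 10 share stretches of 50 bases with another coding transcript, over 12.84% to 37.6% of their own stretches. Adam1a and Adam1b share 1066 such stretches, and Adam26a and Adam26b share 730. The row named Adam6 was matched to Adam6a, which shares 739 stretches with Adam6b, so its reads may stem from either copy. The ratio of Adam1b to Adam1a counts was 1.75 and 1.68 in Nef-sp+/- testes and 1.70 and 1.63 in Nef-sp-/- testes, and that of Adam26a to Adam26b was 1.27 and 1.31 against 1.34 and 1.33. Adam1a also overlaps Mapkapk5 on the same strand, and its reads cannot be told from those of that gene where they overlap. Adam2, Adam3, Adam5, Adam18 and Adam32 share no such stretch with another coding transcript.

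The widely expressed members were rarer. The lowest germ cell gene, Adam34, was 4.18-fold above the highest of them, Adam9, per kb. Adam17, the protease that releases TNF from cells, had normalized counts of 414 and 401 in Nef-sp+/- testes and of 401 and 395 in Nef-sp-/- testes. Adam10, the protease that cuts Notch receptors, had 220 and 246 against 216 and 212. At 66.7 ± 8.68 (Adam9), 56.3 ± 1.14 (Adam17) and 45.3 ± 3.11 (Adam10) per kb these 3 proteases formed a tier of their own. Adam15 had 47.2 and 38.7 normalized counts against 32.3 and 35.5, or 6.24 ± 1.04 per kb. Adam22 and Adam23 encode receptors of LGI proteins of the nervous system and lack the full motif, as does Adam11. Adam23 had 12.7 and 17.6 against 8.08 and 11.8 normalized counts, and Adam22 lay at 3.99 ± 0.613 per kb. Adam8, Adam11 and Adam12 were too rare to be tested, with at most 12 reads in any library, and Adam12 had 0 reads in replicate 1 of both genotypes (a count of 0 allows up to 3 reads, for counting error only).

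The Adamts genes lay at or below 6.10 ± 1.16 per kb, among the rarer of the widely expressed genes. Adamts6 had normalized counts of 28.8 and 24.6 in Nef-sp+/- testes and of 17.3 and 18.9 in Nef-sp-/- testes. For Adamts5, which cuts the aggrecan of cartilage, they were 41.4 and 30.3 against 16.2 and 37.9. Adamts17 had a mean of 44.0 over the 4 libraries. The groups overlapped for Adamts5 and Adamts17. For Adamts6 the 2 Nef-sp-/- values were below both Nef-sp+/- values, as in 18.1% of all tested features. Adamts2, which trims the ends of procollagens, had 6 and 3 reads in Nef-sp+/- testes and 2 and 2 reads in Nef-sp-/- libraries. Adamts3, Adamts19 and Adamts20 had at most 5 reads in any library. The full motif was found in 6 of the 7 Adamts genes, and Adamts20 matched it except for the glycine.

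No member differed between genotypes after adjustment over the 10728 tested features. Of the 28 members that passed the filter on low counts 14 were higher and 14 lower in Nef-sp-/- testes, 0 had an adjusted p below 0.05 and 0 an unadjusted p below 0.05 in edgeR, and DESeq2 called 0 as well. The smallest adjusted p was 0.954 (edgeR). The 2 values of one genotype lay above both values of the other for 4 members higher in Nef-sp-/- and for 6 members lower in it, where 16.4% and 18.1% of all tested features did so. The p-values measure the spread between these libraries, since the sources do not tie each library to a separate animal.

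In the germ cell group 12 genes were higher and 7 lower in Nef-sp-/- testes, with a median log2 fold change of 0.03 and values between -0.09 and 0.09. The median was 0.00081 without the first and 0.050 without the second Nef-sp+/- library, and 0.00046 with the library size taken over all categories. The median absolute change was 0.05 in this group and 0.07 over all tested features. Adam3 had a log2 fold change of 0.07 (SE 0.0587), Adam2 of 0.03 (SE 0.0576) and Adam1b of 0.01 (SE 0.0604). Adam18 (0.07) and Adam29 (-0.09) had the smallest p of the group, at an adjusted p of 0.954 each (edgeR). The 95% intervals of the 19 genes together reached from -15.2% to 21.0% of the Nef-sp+/- level, so changes beyond those bounds lie outside the interval of every gene. Summed spermatocyte markers were 44216 and 47370 in Nef-sp+/- testes and between 47631 and 49218 in Nef-sp-/- testes, and with the spermatid markers above they were lowest in the first Nef-sp+/- library; their part in these values was not tested.

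Among the 6 tested widely expressed genes 1 was higher and 5 lower in Nef-sp-/- testes, with a median log2 fold change of -0.08. Adam10 (-0.13), Adam15 (-0.31) and Adam23 (-0.65, SE 0.394) had both Nef-sp-/- values below both Nef-sp+/- values, as had 18.1% of all tested features. Without the second Nef-sp+/- library Adam10 was at -0.039, Adam23 at -0.34 and Adam15 at -0.48. Adam15 was at -0.19 without the first Nef-sp+/- library and Adam23 at -0.40 without the first Nef-sp-/- library. Among the 3 tested Adamts genes the log2 fold changes were -0.53 (SE 0.286) for Adamts6, -0.37 (SE 0.348) for Adamts5 and 0.04 (SE 0.245) for Adamts17. All of them had an adjusted p of at least 0.954 (edgeR), and the 95% intervals ran as low as -1.52 for Adam23 and as high as 0.58 for Adamts17 on the log2 scale. Changes of the rarer genes among them were thus left within wide bounds. The value of Adamts5 rests on the first Nef-sp-/- library, without which it was 0.13. Vessel wall markers, of which 2 of 3 were listed, summed to between 24.2 and 26.8 in Nef-sp+/- testes and between 12.7 and 22.5 in Nef-sp-/- testes. Sums of peritubular myoid markers (6236 to 7046 against 6788 to 6956) and macrophage markers (88.6 to 99.3 against 86.4 to 93.5) overlapped, as did those of Sertoli cell markers. Blood markers were higher in Nef-sp-/- testes (213 to 232 against 241 to 254). The part of these markers, like that of the Leydig cell markers above, was not tested.

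**Figure D3:**
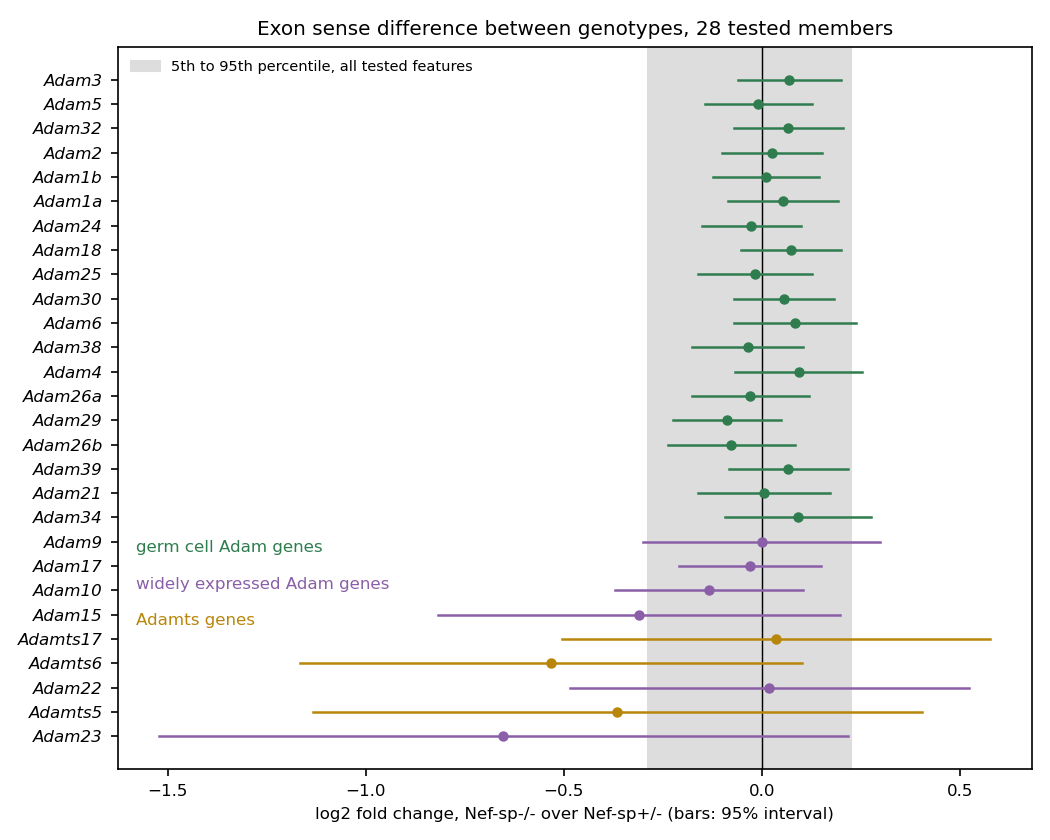
The plot of fold changes gives the log2 fold change between genotypes (Nef-sp-/- relative to Nef-sp+/-) for the 28 tested members, ordered by level per kb, with bars for the 95% interval. The grey band spans the 5th to the 95th percentile of all tested features, from -0.29 to 0.22. All 19 germ cell genes lie inside it, as do 4 of 6 widely expressed and 1 of 3 Adamts genes, and the bars widen towards the rare genes.

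Other genes of ADAM biology were read from the same fit, and 0 of the 32 tested passed the adjusted threshold in edgeR or DESeq2. Of 14 factors needed in males for ADAM2 or ADAM3 on sperm 12 were listed and tested. Among these, 9 were higher and 3 lower in Nef-sp-/- testes, with 0 below an adjusted or unadjusted p of 0.05 (edgeR). Both Nef-sp-/- values lay above both Nef-sp+/- values for 5 of the 12 and below them for 1. Over the 32 tested genes of ADAM biology this held for 6 and 5, and over all tested features for 16.4% and 18.1%. Clgn, which encodes the chaperone calmegin, had normalized counts of 13498 and 13554 in Nef-sp+/- testes and of 13588 and 13146 in Nef-sp-/- testes. Calr3, the germ cell calreticulin, had 2996 and 3607 against 3597 and 3301. Neither gene separated the genotypes, and Pdilt, a further chaperone of ADAM3, was not analysed here. Ace, of which a testis isoform is needed for ADAM3 on sperm, had 10440 and 12721 against 12885 and 12276 (log2 fold change 0.12, adjusted p = 0.954). For Prss37, listed as 1700016G05Rik, the counts were 4802 and 5500 against 5850 and 5526 (log2 fold change 0.14, adjusted p = 0.954). Without the second Nef-sp+/- library Ace reached 0.27 and Prss37 reached 0.24. Without the first they were at -0.02 and 0.05, so both values depend on which control library is kept (edgeR).

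Of 18 inhibitors and regulators of these proteases 11 were listed and 9 tested, with 4 higher and 5 lower in Nef-sp-/- testes and 0 below an adjusted or unadjusted p of 0.05 (edgeR). Timp2, an inhibitor of metalloproteases, had normalized counts of 2537 and 2534 in Nef-sp+/- testes and of 2367 and 2422 in Nef-sp-/- testes (log2 fold change -0.08, adjusted p = 0.954). Of 20 substrates 11 were listed and tested, with 3 higher and 8 lower, 0 below an adjusted p of 0.05 and 2 below an unadjusted p of 0.05, where 4.8% of all tested features were (edgeR). Those were the fibrillar collagens Col1a1 and Col3a1. Col1a1 had 17.3 and 90.1 normalized counts in Nef-sp+/- testes and 21.9 and 4.73 in Nef-sp-/- testes. Col3a1 had 222 and 456 against 254 and 170. In both genes the second Nef-sp+/- library was high and the genotypes overlapped. Without it the log2 fold change went from -2.17 to -0.36 for Col1a1 and from -0.73 to -0.06 for Col3a1. When the first Nef-sp+/- library was left out instead, the values were -2.73 and -1.10 (edgeR).

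Reads from introns and from the opposite strand give further readouts of the same genes. The libraries keep the strand, and the table counts intron-sense, exon-antisense and intron-antisense reads apart. Features whose names begin with Adam were listed 13 times among 6616 intron-sense, 4 times among 2346 exon-antisense and 5 times among 2754 intron-antisense features, and 10, 2 and 3 of these passed the filter. None of the 15 had an adjusted or an unadjusted p below 0.05 in edgeR, and DESeq2 called 0 as well. By comparison, 0.0294% of all tested intron-sense features passed after adjustment and 2.35% before it. For exon-antisense features the shares were 0% and 2.98%, and for intron-antisense features 0% and 4.5%.

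The largest of these values belonged to Adamts6. On the strand opposite to the gene, its introns held 2316 and 3513 reads in Nef-sp+/- testes and 2233 and 2201 reads in Nef-sp-/- libraries, or 2700, 2478, 2571 and 2572 normalized counts. That placed it 38 among 2754 intron-antisense features. The mean of the reads was 113-fold that of its exon-sense reads, without scaling for the longer introns. The genotypes did not separate (log2 fold change -0.01, SE 0.0758). GENCODE vM1 lists no gene that overlaps Adamts6 (chr13:105077953-105284843, plus strand) on either strand.

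Intron reads outnumbered exon reads in a further 3 genes, as totals that are not scaled by length. Adamts17 has 7218 exon bases within chr7:73984621-74297511, Adamts3 has 8546 within chr5:90102866-90312359 and Adam22 has 12249 within chr5:8072352-8368160. Their introns are thus much longer than their exons, and the totals do not compare levels per kb. The introns of Adamts17 held 387 and 464 normalized counts in Nef-sp+/- testes and 457 and 368 in Nef-sp-/- testes on the sense strand. In total reads that was 9.69-fold its exon-sense reads. Those of Adamts3 held 114 and 122 against 138 and 107, whereas its exons had at most 3 reads in a library. In Adam22 the introns held 143 and 150 against 173 and 152 on the antisense strand, 3.20-fold its exon-sense reads. For Adamts17 no overlapping gene is listed. Adamts3 holds annotated 7SK and SNORA17 copies and Adam22 a SNORA48 copy, all on the opposite strand, and Adam22 also holds a miRNA gene on its own strand. The source of the intron reads was not tested.

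In the germ cell genes with tested intron-sense reads the introns held little beside the exons. Adam3 introns had 279 and 288 normalized counts in Nef-sp+/- testes and 326 and 337 in Nef-sp-/- testes on the sense strand (log2 fold change 0.22, adjusted p = 0.9996, edgeR), which in reads was 1.06% of its exon-sense level. For Adam2 they were 251 and 216 against 226 and 219, or 2.07%. Both genotypes thus showed mostly exonic reads for these genes. Adam5 introns had 95.3 and 143.5 against 127 and 132 normalized counts, and Adam32 introns 97.5 and 106 against 90.5 and 102.3. Adam18 introns had 77.3 and 82.4 against 78.6 and 66.0. Lower still were the introns of Adam34, with 24.7 and 28.7 against 17.9 and 28.6, and of Adam25, with 5.605 and 12.5 against 22.6 and 6.60. The introns of these 5 genes held 0.360% to 3.90% of the exon-sense reads, and the genotypes overlapped in each. Adamts16 was listed by its introns and not by exon-sense reads, with 28.02 and 42.7 against 38.1 and 26.4 normalized counts.

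The other tested antisense features belonged to genes with a further annotated gene on the opposite strand. Adam2 introns had 364 and 378 against 397 and 352 normalized counts on the antisense strand, and the pseudogene Gm10233 lies within the gene in that orientation. Adam17 exons had 34.9 and 38.1 against 42.0 and 33.3, and Iah1 overlaps the 3′ end of the gene on the opposite strand. Adam1b exons had 41.9 and 36.7 against 38.5 and 36.9, and the gene lies within Tmem116. The genotypes overlapped in each of these 3 features.

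**Figure D4:**
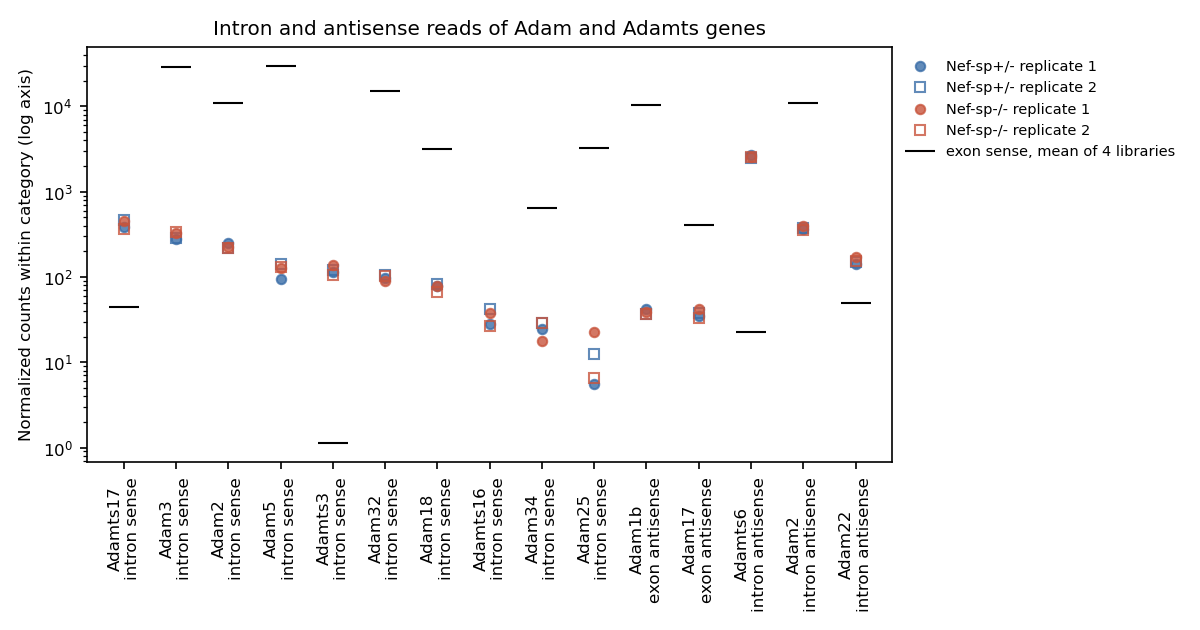
The plot of intron and antisense reads gives the 15 tested features of the 3 further categories in each library as normalized counts on a log axis, each category scaled on its own. The black line is the mean exon-sense count of the same gene over the 4 libraries, which Adamts16 does not have. The points of Adamts6 lie far above its line, those of Adamts17, Adamts3 and Adam22 also lie above theirs, and those of the other genes lie below. Counts are not scaled by the length of introns or exons.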

How the data were processed

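Testicular total RNA was depleted of ribosomal RNA and sequenced as strand-specific libraries, 2 per genotype, grouped by their labelled genotype. The authors removed adapters, mapped reads to mm9, kept perfect matches and deposited raw counts per feature, annotation category and strand. Tool versions are not given in the sources used here. Every feature in the table had at least 5 reads over the 4 libraries, and features below that were not analysed here. The authors also deposited a mean normalized signal, a log2 fold change and p-values of their DESeq2 comparison, and none of these were used.

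Each category was fitted across all its features with edgeR 4.0.16 in R 4.3.3 (TMM, filterByExpr with a minimum count of 10, quasi-likelihood test, Benjamini-Hochberg adjustment, threshold 0.05). DESeq2 1.42.0, other scalings and filters, a replicate block and leaving out each library were alternatives. Scripts were tested on simulated data. For normalized counts, each library was scaled to the mean of the 4 TMM-adjusted library sizes. Levels per kb used the exon lengths of GENCODE vM1. Of the members 33 were matched to GENCODE vM1 by their own symbol and 2 by a RefSeq synonym. A further 24 Adam symbols of RefSeq had no exon-sense row and were not analysed here. The zinc-binding motif was searched in the longest coding transcript. Adam members without it were aligned over their whole length, with gaps allowed, to the most similar Adam member with it. The aligned place was taken only where the motif itself held no gap, which was not so for Adam11. Adamts20 was not aligned.

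Given with all library values were the 12 members with the highest counts, the 5 with the smallest p, the 5 with the largest fold change, fixed members (Adam1a, Adam1b, Adam2, Adam3, Adam10, Adam15, Adam17, Adamts2 and Adamts5), tested features of the other categories, and for partner genes the 3 with the smallest p and Clgn, Calr3, Ace and Timp2. Members, groups and lists were chosen with earlier results of these data known. Totals per library were between 20659865 and 34442517 reads, and intervals cover the spread between libraries.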

Additional observations from a re-analysis of the deposited data

How the results depend on the processing

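The count of 0 Adam and Adamts features below the threshold held under all 6 other settings and all 4 fits without a library, with a smallest adjusted p of 0.335 for a member (Adam6 without the second Nef-sp+/- library, edgeR) and of 0.919 with all libraries. Over all exon-sense features 1 was called, 2 with DESeq2, and between 1 and 252 without a library (41 without the first and 252 without the second Nef-sp+/- library). Among partner genes the count was 0, and between 0 and 2 without a library. The median log2 fold change of the widely expressed genes was -0.08 and ran from -0.17 to -0.10 without a library and was -0.03 with at least 10 counts in every library, a filter that leaves out Adam23, and that of the Adamts genes was -0.37 and ran from -0.62 to -0.17; the cause was not tested.

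The sign changed in some fits for the genes that follow. Adam1b was at -0.014 with the library size taken over all categories. Without a library the log2 fold change ran from -0.053 to 0.036 for Adam5, from -0.025 to 0.048 for Adam1b, from -0.0081 to 0.12 for Adam1a, from -0.074 to 0.042 for Adam25, from -0.083 to 0.012 for Adam38 and from -1.09 to 0.13 for Adamts5. Over all fits it ran from -0.22 to 0.19 for Adam9, from -0.22 to 0.20 for Adam22, from -0.34 to 0.33 for Adamts17, from -0.08 to 0.11 for Adam21 and from -0.09 to 0.03 for Adam26a. With 2 libraries per genotype the fit without a library takes the spread from the group that keeps both. With the replicate number as a block, 0 members and 1 exon-sense feature were called. Deviations of same-numbered libraries had correlations of -0.08 (exon sense), -0.14 (intron sense), -0.04 (exon antisense) and -0.11 (intron antisense). The labels tie these libraries by number only. With 2 libraries per genotype the correlations cannot tell whether same-numbered libraries were paired. A block with the numbers crossed, chosen after seeing the data for both intron categories, called 0 Adam features. The 7 untested members had too few reads for the filter.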
